A study of Mus musculus with 2 samples.

Results

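Resting CD8 T cells of the normal mouse mammary gland were taken from single-cell RNA sequencing (10x Genomics, 3' chemistry) of 2 libraries, 1 per group. The counts used here, labelled negs, held 1806 cells of the normal gland library (NEC) and 1000 of the tumor library (TEC), 2806 in all. A NEC cell was a member when it held at least 1 UMI (unique molecular identifier, 1 captured transcript) of Cd3e, Cd3d or Cd3g, at least 1 of Cd8a or Cd8b1, none of Cd4 or Cd79a, at most 1 of Rora, Tnfrsf4 and Il2rb together, and at most 3 of Lyz2. This gate held 186 cells, 10.3% of the NEC cells in these counts (exact binomial 95% interval 8.93 to 11.8).

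Both libraries came from female C57BL6/J mice, 8 weeks of age, with the alleles Cdh5Cre-ERT2:ZSGreenl/s/l. Tamoxifen had been given to all of them to switch on the green reporter through the endothelial Cdh5 promoter. TEC is the EO771 mammary tumor grown in the fat pad of syngeneic mice, and NEC is the normal gland; whether the normal glands came from tumor-bearing mice and how many mice were pooled is not given in the sources used here. Reporter-positive live cells had been collected by flow cytometry, so endothelial cells were the labelled content, yet Cdh5 was at 0 UMIs in the CD8 gate and in all other NEC cells. Pecam1, an adhesion molecule of endothelium and leukocytes, gave 12 of the 14 endothelial-marker UMIs of the members, and 6 of the 9 measured endothelial markers were at 0. Why T cells were present in this sort, and whether the counts used here hold all sorted cells, was not tested.

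CD8 T cells carry a co-receptor, built from the CD8 alpha and beta chains, that binds MHC class I beside the T-cell receptor. Naive CD8 T cells recirculate: CCR7 guides them into lymph nodes, the factor KLF2 keeps these homing and exit genes on, and the receptor S1PR1 lets them leave. TCF1 (Tcf7) and LEF1 maintain the naive state and the capacity to form memory. Antigen-experienced CD8 cells instead express chemokines such as Ccl5, cytotoxic granule genes such as Nkg7 and the granzymes, the factor Eomes and the homing receptor Cxcr3, and resident cells of tissues add Cxcr6 and Itgae.

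All cells compared below came from 1 library, so no difference has a replicate check and no p-value is given. Levels are in CPM, the UMIs of a gene summed over the cells of a gate and scaled to a common total of UMIs per gate, with exact Poisson 95% intervals. Ratios carry exact 95% intervals conditional on a gene's total. All intervals cover counting error only, not the spread between cells or animals. A gene met the size rule with at least 20 UMIs over both gates, a ratio of 2 or more in either direction and an interval that excluded 1. A gate with 0 UMIs was set to 3 UMIs over the gate, which gives a bound. That bound leaves out the counting error of the other gate, so the interval from the counts can begin lower.

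The members held 645389 UMIs, with a median of 3444 UMIs per cell (1338 to 10350), 1004.5 genes and 3.09% mitochondrial UMIs. None was called a doublet or removed by the cell filter. The libraries shared 2 cell barcodes, of which 1 belonged to a member. Of the 253 NEC cells with a Cd8a or Cd8b1 UMI, 186 were members, 14 had no Cd3 UMI, 48 held 2 or more UMIs of Rora, Tnfrsf4 and Il2rb, and 5 held Cd79a. Among the Cd3-positive resting cells with a Cd8 UMI, 0 held Cd4. Genes of the T-cell receptor constant regions were not analysed here.

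The members were chosen by their UMI counts of the genes of the gate, which describe them and are not results. Cd8b1 (chr6:71322788-71337494, GRCm38) and Cd8a (chr6:71373427-71379173) lie side by side on the plus strand. Both were present in 62 members, Cd8b1 alone in 97 and Cd8a alone in 27. A single Cd8 UMI admitted 78 members, and CD8 T cells without a captured Cd8 UMI are outside the gate. At least 2 Cd3 UMIs were present in 166 members and all 3 Cd3 genes in 79. The score of Rora, Tnfrsf4 and Il2rb was 0 in 121 members and 1 in 65, and the single UMI was Il2rb, an IL-2 and IL-15 receptor chain, in 48 of these.

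**Figure D1:**
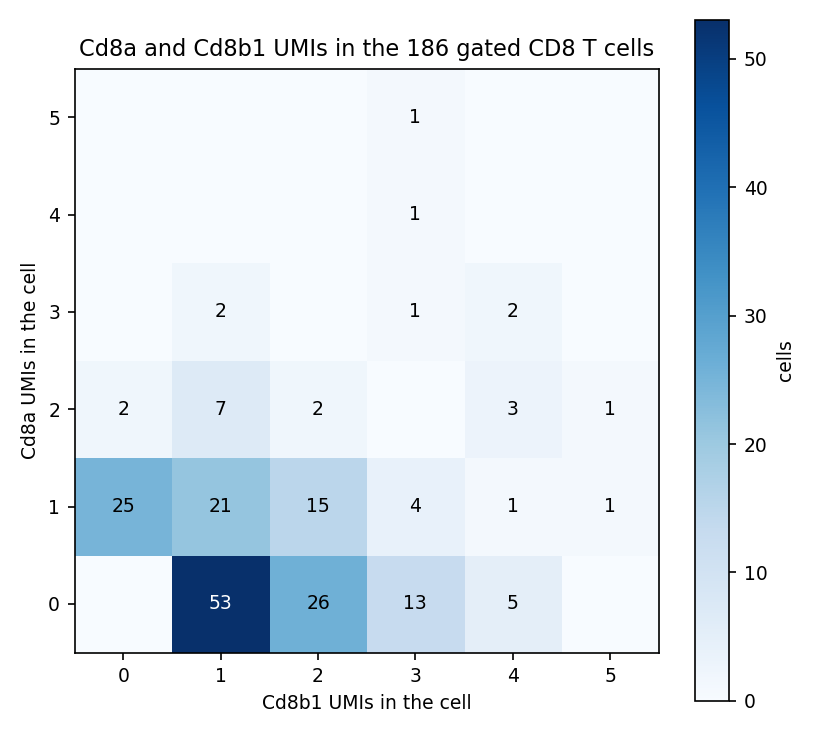
UMIs of Cd8b1 (horizontal) and Cd8a (vertical) in each of the 186 members; the number and the shade of a square give the number of cells. The 2 fullest squares hold 53 cells with 1 Cd8b1 UMI and 26 with 2 Cd8b1 UMIs, both without Cd8a, and no member had more than 8 Cd8 UMIs.

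Cells on either side of the limit on Rora, Tnfrsf4 and Il2rb can be set side by side without a test. Among Cd8-positive cells, Lef1 stood at 465.5 CPM in the 121 cells with a score of 0, at 423.1 in the 65 with 1, at 443.3 in the 30 with 2 and at 236.6 in the 16 with 3 or more. S100a4, a calcium-binding protein of activated lymphocytes, gave 1 UMI at a score of 0, 1 UMI at 1, and 31.7 and 486.3 CPM in the cells with 2 and with 3 or more, and Ccl5 stood at 350.4, 1090, 419.6 and 2326 CPM in the same order. The cells just inside and just outside the limit were alike in Lef1, while S100a4 was highest in the 16 cells farthest outside.

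Promoter sequence is shown for Cd8a, which defines the gate, and for Ly6c2 and Cst7, which led the comparisons with other resting T cells below. Each window holds the 250 bases upstream of the gene's start in RefSeq (GRCm38.p6), at chr6:71373177-71373426 on the plus strand, chr15:75111972-75112221 on the minus strand and chr2:150570165-150570414 on the plus strand. Runx3, the RUNX factor that establishes the CD8 lineage, recognises the core TGTGGT. This core and its reverse complement ACCACA, which do not overlap each other, were searched and are in capitals.
Cd8a: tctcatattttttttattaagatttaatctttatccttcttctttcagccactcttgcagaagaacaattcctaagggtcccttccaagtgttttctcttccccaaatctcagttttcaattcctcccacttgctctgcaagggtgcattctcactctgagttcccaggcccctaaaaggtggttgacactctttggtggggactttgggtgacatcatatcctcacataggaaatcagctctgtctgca
Ly6c2: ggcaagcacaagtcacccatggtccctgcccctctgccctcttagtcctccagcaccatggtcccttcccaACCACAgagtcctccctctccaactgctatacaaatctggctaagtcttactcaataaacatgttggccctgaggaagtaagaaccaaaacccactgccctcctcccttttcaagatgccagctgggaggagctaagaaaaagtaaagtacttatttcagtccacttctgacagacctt
Cst7: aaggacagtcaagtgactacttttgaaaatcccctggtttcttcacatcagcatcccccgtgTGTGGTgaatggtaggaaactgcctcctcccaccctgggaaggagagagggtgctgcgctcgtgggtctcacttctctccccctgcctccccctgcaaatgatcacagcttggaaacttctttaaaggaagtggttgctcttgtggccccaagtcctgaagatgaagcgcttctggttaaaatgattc
The core occurred in the windows of Ly6c2 and Cst7 and not in that of Cd8a. It occurred in 14.0% of 32851 promoter windows of this length, so a match describes the letters and not a binding site.

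The naive and recirculation genes were present in most members. Ccr7 stood at 553.2 CPM (497.3 to 613.6) and had a UMI in 132 members, 71.0% (63.9 to 77.4). In Lyz2-high cells without Cd3 or Cd79a UMIs, which should lack Ccr7 and had a median of 3241 UMIs, the share was 1.54%. With each cell thinned to 1000 UMIs, Ccr7 was present in 42.5% of members and in 41.7% of B cells (Cd79a-positive, no Cd3), which use the same homing receptor. Lef1 or Tcf7 was present in 44.6% of thinned members against 1.30% of thinned B cells, or 75.3% and 3.40% without thinning, at medians of 3444 and 1767 UMIs.

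Exit and quiescence genes were present too, at sums not particular to the members. The 14 quiescence genes summed to 3953 CPM in the members and 3944 in T cells with a score of 2 or more. They summed to 5050 CPM in the Cd4-positive T cells and 4755 in B cells. The 13 egress and homing genes in the table summed to 2270, 1943, 3223 and 2175 CPM in the same order. Klf2 stood at 963.8 CPM (889.5 to 1043) in 157 members, and S1pr1 at 229.3 CPM (193.9 to 269.4) in 95. Btg1, an antiproliferative gene, stood at 2169 CPM in 183 members, Tsc22d3, a glucocorticoid-induced brake on activation, at 257.2 CPM, and Bcl2, a survival gene, at 122.4 CPM. Il7r, the receptor for the survival cytokine IL-7, stood at 103.8 CPM (80.5 to 131.8) in 50 members. Mki67, a marker of cycling, was at 0 UMIs, which allows up to 4.65 CPM.

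Genes of the memory and effector list were uneven in the members. The 26 genes of the list summed to 1820.6 CPM (1718 to 1928), with a UMI of at least 1 of them in 156 members (83.9%). Ccl5, a chemokine of memory CD8 cells, gave 632.2 CPM of this sum, and Nkg7, a granule protein, was present in 53 members, Ly6c2 in 67 and Ctla2a in 68. At least 1 gene of the list was also present in 99.2% of Lyz2-high cells. It was present in 63.9% of resting T cells without a Cd8 UMI and in 33.7% of B cells, so the share alone does not mark memory cells. The 9 residency genes in the table summed to 545.4 CPM (489.9 to 605.5), with a UMI in 134 members (72.0%). They summed to 718.5 CPM in resting T cells without a Cd8 UMI (67.4% of cells) and 625.6 CPM in other NEC cells (56.3%). The 10 checkpoint and exhaustion genes summed to 74.4 CPM (54.8 to 98.6) in 30 members, and to 103.7 and 108.7 CPM in those 2 groups. Some single genes of these lists were at or near 0. Gzmk, Prf1 (perforin), Klrg1, Cx3cr1, Itga1, Prdm1 and Havcr2 were each at 0 UMIs in the members. Gzmb gave 15 UMIs in 9 cells, Gzma 5 UMIs in 4 cells, Tbx21 1 UMI, Pdcd1 1 UMI and Lag3 1 UMI. Cd44, an adhesion molecule raised on memory cells, stood at 32.5 CPM (20.1 to 49.7) in 19 members, and Cxcr6 at 7.75 CPM (2.52 to 18.1) in 5. Against other NEC cells, Itgae, a gene of both the residency and the CD8 lineage lists, met the size rule as higher in the members. The residency genes Cxcr6 and Prdm1 met it as lower. Klrd1 (CD94), an NK-type receptor subunit, was present in 70 members at 145.6 CPM (117.7 to 178.2).

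**Figure D2:**
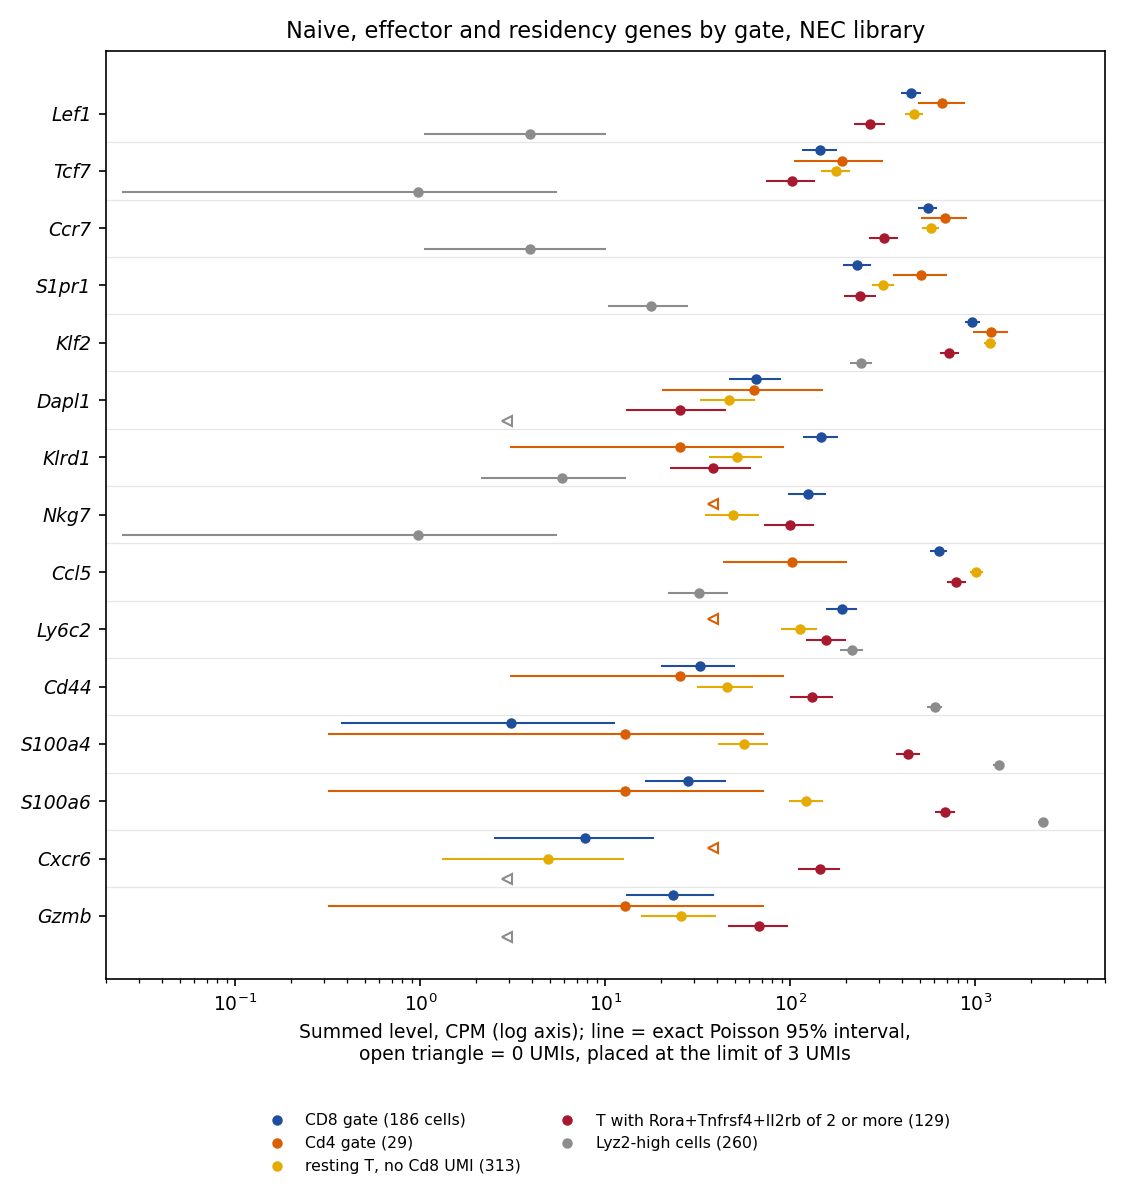
Level (CPM, log axis) of 15 genes in 5 gates of the NEC library; points are summed levels, lines exact Poisson 95% intervals, and open triangles gates with 0 UMIs at the limit of 3 UMIs. Ccr7 stood at 553.2 CPM in the CD8 gate and 3.90 CPM in the Lyz2-high cells, while S100a4 stood at 3.10 and 1334 CPM in these gates and at 431.8 CPM in the T cells with a score of 2 or more.

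Markers of other cell types were not absent, with a B-cell marker UMI in 75 members and a macrophage or monocyte marker UMI in 87. B-cell markers (12 in the table) summed to 162.7 CPM in the members, 101.5 in the Cd4 gate and 331.8 in resting T cells without a Cd8 UMI, with 3 of 12 at 0 in the members. Macrophage or monocyte markers summed to 203.0, 228.4 and 261.0 CPM, with 6 of 12 at 0, C1qa among them. NK markers summed to 57.3, 12.7 and 68.3 CPM with 3 of 9 at 0. The 6 regulatory T cell markers summed to 314.5, 507.5 and 363.5 CPM, with a UMI in 109 members. Of these, Foxp3 and Il2ra, which define regulatory T cells, were both at 0 in the members. Against other NEC cells, Ctla4 and Tnfrsf18 met the size rule as higher and Ikzf2 as lower. The call of Ctla4 was lost without the top cell of each gene. Fibroblast markers summed to 251.0, 63.4 and 744.1 CPM, and 1 member held 84.0% of those UMIs in the CD8 gate. That member also held 96 of the 100 UMIs of Col1a1, Col1a2, Col3a1 and Dcn, and its part in other results was measured by leaving it out.

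The Cd4-positive T cells, with the same gate but Cd4 in place of Cd8, numbered 29 and held 78817 UMIs, 12.2% of the members' total. Genes of CD8 and cytotoxic cells, such as Ly6c2, Nkg7, Ctsw and Klrd1, were higher in the members, Hif1a and Tmem64 were lower, and most naive genes did not meet the size rule. Of 2949 genes with 20 UMIs, 23 met the size rule as higher in the members (0.78%) and 161 as lower (5.46%). With this few Cd4-positive cells, a gene at 0 in them needed at least 50 UMIs in the members to be called higher, so the rule does not weigh both directions evenly here. The balance depends on the scaling: TMM factors moved the median log2 ratio by 0.47 and gave 110 higher and 46 lower, and totals without ribosomal and mitochondrial genes gave 45 and 95. Ribosomal protein genes took 52.3% of UMIs in the members and 46.0% in the Cd4-positive cells, and their part in this balance was not tested further. All 12 genes named in each direction kept their call under both scalings. With cells thinned to 1000 UMIs, 10 of the genes named as higher were measured and 1, Plac8, still met the rule; Ly6c2, Klrd1, Ctla2a, Klk8, Bend4, Bola2, Epsti1, Set and 5730508B09Rik did not, and none reversed. Of 6 named as lower and measured, 5 still met it.

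Of 26 memory and effector genes, 8 were measured against the Cd4-positive cells, 6 met the rule as higher and 0 as lower, with a median log2 ratio of 1.84 against -0.15 over all genes. These counts were the same under both scalings. A gene was measured with 20 UMIs over both gates, and the members held most UMIs. In the Cd4-positive cells 13 of the 26 genes were at 0. Ly6c2, Nkg7 and Ctsw were among them and were measured through the members alone. The counts and the median therefore describe the measured genes and not the list. Ly6c2, a surface protein of memory and effector CD8 cells, stood at 189.0 CPM (157.0 to 225.7) in the members, with a UMI in 67. It was at 0 in the Cd4-positive cells, 4.97-fold higher with that 0 set to 3 UMIs, and the interval began at 3.98. Ly6c2 is nearly identical to Ly6c1, and how reads were divided between them is not known; Ly6c1 stood at 6.20 CPM in the members. Nkg7 stood at 124.0 CPM and at 0, 3.26-fold higher with the 0 set to 3 UMIs. Ctsw (cathepsin W of cytotoxic lymphocytes) stood at 89.9 CPM and at 0, 2.36-fold higher at the same setting, and the interval began at 1.86. Klrd1 was 5.74-fold higher (1.55 to 48.1) and Ctla2a, a protease inhibitor, 3.93-fold (1.77 to 10.8). Ccl5 was 6.23-fold higher (3.13 to 14.5), with most of its UMIs in few members, as given below.

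Of 14 genes of the CD8 lineage list, 6 were measured and 4 met the rule as higher: Klrd1, Ctsw, Nkg7 and Plac8. Ctsw and Nkg7, at 0 in the Cd4-positive cells, were again measured through the members alone. Plac8, a small cysteine-rich protein of leukocytes, stood at 275.8 CPM in the members and 50.8 CPM in the Cd4-positive cells, 5.43-fold higher (2.09 to 20.2). Klk8, a serine protease gene, stood at 226.2 and 38.1 CPM, 5.94-fold higher (1.99 to 29.2), and was present in 93 members. Bend4 was at 113.1 CPM and 0, 2.97-fold higher with the 0 set to 3 UMIs, and the interval began at 2.36. Runx3 itself stood at 99.2 CPM (76.4 to 126.6) and 50.8 CPM (13.8 to 129.9), and did not meet the rule (1.95-fold, 0.727 to 7.39). It met the rule under TMM scaling and not with totals that left out ribosomal and mitochondrial genes.

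Few naive and recirculation genes met the rule. Of 13 naive identity genes measured, 0 met the rule as higher and 1 as lower; Lef1 stood at 449.3 CPM (399.1 to 504.1) in the members and 659.8 CPM (492.7 to 865.2) in the Cd4-positive cells, and Tcf7 at 144.1 and 190.3 CPM. Ccr7 stood at 553.2 and 685.1 CPM, 1.24-fold lower (0.913 to 1.65). S1pr1 stood at 229.3 and 507.5 CPM, 2.21-fold lower (1.52 to 3.16), and Igfbp4 at 156.5 and 329.9 CPM, 2.11-fold lower. The calls of S1pr1 and Igfbp4 were lost under both scalings, while Rasgrp2, a RAP1 activator for integrins, kept its call (2.87-fold lower, 1.66 to 4.78). Of 15 immediate early genes measured, 0 met the rule in either direction, although Junb stood at 1170 and 2119 CPM. Under TMM scaling Dusp2 met the rule as higher.

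The genes named as lower than in the Cd4-positive cells were led by Hif1a and Tmem64. Hif1a, the oxygen-regulated transcription factor, stood at 68.2 CPM (49.5 to 91.5) in the members and 406.0 CPM (277.7 to 573.2) in the Cd4-positive cells, 5.96-fold lower (3.66 to 9.61). Tmem64, a membrane protein, stood at 68.2 and 355.3 CPM, 5.21-fold lower (3.12 to 8.56). Fas, a death receptor, was 5.46-fold lower, Itm2a 4.91-fold and Cd247, the CD3 zeta chain of the receptor complex, 3.70-fold. Rgs1, a brake on chemokine signaling, was 3.93-fold lower, but 1 of the 29 cells held 58.3% of its UMIs in the Cd4-positive gate, and the call was lost without the top cell.

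Because the Cd4-positive gate was small, the members were also set against all 313 resting T cells without a Cd8a or Cd8b1 UMI. These hold the 29 Cd4-positive cells, and an unknown number of CD8 T cells whose Cd8 transcripts were not captured, at a median of 2467 UMIs against 3444. Of 4949 genes, 47 met the rule as higher in the members (0.95%) and 184 as lower (3.72%), or 78 and 123 under TMM scaling, which moved the median log2 ratio by 0.11. Cst7 (cystatin F, an inhibitor of granule cathepsins) stood at 49.6 CPM (33.9 to 70.0) and 8.54 CPM (3.43 to 17.6), 5.81-fold higher (2.52 to 15.6). Klrd1 was 2.84-fold higher (1.96 to 4.19), Bend4 2.58-fold (1.71 to 3.95) and Nkg7 2.54-fold (1.72 to 3.81). Lcn4, a lipocalin, was 2.91-fold higher (1.61 to 5.49), and lost its call in the stricter gate.

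Several of the differences from the Cd4-positive cells were smaller here. Ly6c2 stood at 189.0 and 112.2 CPM, 1.68-fold higher (1.27 to 2.23), Plac8 1.78-fold, Klk8 1.52-fold, Ctsw 1.57-fold and Ctla2a 1.49-fold, none meeting the rule. Tmem64 stood at 68.2 and 250.1 CPM, 3.67-fold lower (2.64 to 5.20), Hif1a was 2.31-fold lower (1.63 to 3.33), Itm2a 2.79-fold, Fas 2.49-fold and Gata3, the type 2 helper factor, 2.69-fold (1.39 to 5.62). St8sia6, a sialyltransferase, stood at 3.10 and 46.4 CPM, with a UMI in 2 of 186 members and 35 of 313 others. Ccl5 stood at 632.2 and 1012 CPM and did not meet the rule. Lef1, at 449.3 and 467.2 CPM, and Ccr7, at 553.2 and 574.5 CPM, differed by 1.04-fold each (0.890 to 1.22 and 0.903 to 1.20). Among the genes with the lowest ratios, 1 cell of the larger gate held 98.9% of the UMIs of Ptn. A single cell also held 54.1% of the UMIs of Ccl2, 50.7% of Cxcl1 and 57.9% of Cxcl2, chemokines with a UMI in 22, 21 and 11 of the 313 cells, and these 3 kept their calls without it.

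**Figure D3:**
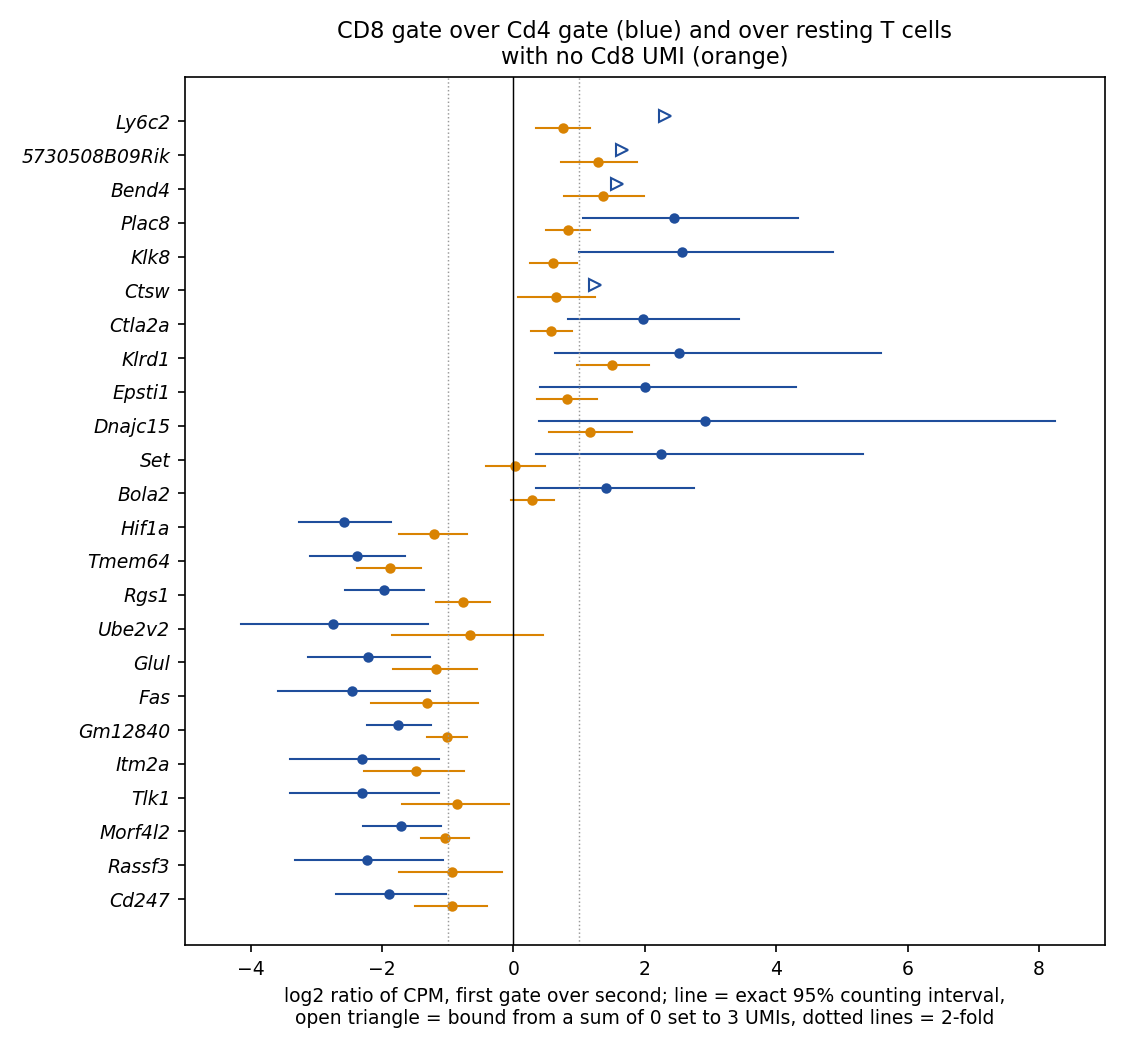
Ratio of CPM (log2) for the 24 genes named in the comparison with the Cd4-positive cells, against those cells (blue) and against resting T cells with no Cd8 UMI (orange); lines are exact 95% counting intervals, open triangles bounds from a sum of 0. Klrd1 is 5.74-fold and 2.84-fold higher in the members, and Tmem64 5.21-fold and 3.67-fold lower.

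The members were next compared with 129 T cells of any co-receptor with a score of 2 or more for Rora, Tnfrsf4 and Il2rb, genes of activated, helper and innate-like T cells. These cells had a median of 3399 UMIs. Of 4214 genes, 66 met the rule as higher in the members (1.57%) and 320 as lower (7.59%), or 139 and 209 under TMM scaling (shift of the median log2 ratio 0.18). Genes lower in the members included S100a4, a calcium-binding protein, Cxcr6, Icos and Gata3, and Klrd1 was among the higher ones. The lists described below hold only some of these genes. The 3 genes of the score are part of the gate and are not counted as named genes.

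S100a4 stood at 3.10 CPM (0.375 to 11.2) in the members and 431.8 CPM (374.6 to 495.3) in these cells, with a ratio of 139-fold (38.1 to 1158). S100a6, a related calcium-binding protein, stood at 27.9 and 685.8 CPM, 24.6-fold lower (15.3 to 42.0). Cxcr6, the receptor that holds T cells in tissue, stood at 7.75 and 143.9 CPM, 18.6-fold lower (7.58 to 59.1), and Lmna, the nuclear lamin A/C gene, at 26.3 and 313.3 CPM, 11.9-fold lower (7.18 to 21.0). These 4 genes were carried by many of the cells outside the limit, with a UMI of S100a4 in 49 and of Lmna in 53 of the 129.

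Of 15 memory and effector genes measured, 1 met the rule as higher in the members and 8 as lower, with a median log2 ratio of -1.14 against -0.18 over all genes. Some were measured through the 129 cells, such as S100a4 with 2 UMIs in the members and 204 in those cells. The counts and the median therefore describe the measured genes and not the list. Cd44 was 4.03-fold lower (2.42 to 6.97), Anxa2, a membrane-binding annexin, 5.85-fold and Gzmb 2.91-fold (1.53 to 5.79). Klrd1 was the 1 gene higher, at 145.6 and 38.1 CPM (3.82-fold, 2.29 to 6.73). Nkg7 stood at 124.0 and 99.5 CPM, Ccl5 at 632.2 and 789.6 CPM and Ly6c2 at 189.0 and 156.6 CPM, none meeting the rule. Ctla2a, 2.20-fold lower, lost its call under both scalings.

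Of 8 genes measured from the CD4 lineage list, 7 met the rule as lower and 0 as higher, and these counts were the same under both scalings. The members were chosen without Cd4 and the 129 cells were not, so this contrast mixes co-receptor and score. The list summed to 220.0 CPM in the members and 1530 CPM in the 129 cells. In the 46 of these with Cd8 and no Cd4 UMIs it summed to 647.2 CPM. The sums include Cd4 and Tnfrsf4, genes of the gate. Ikzf2 (Helios) was 12.7-fold lower in the members (5.82 to 32.8), Tnfsf8 (CD30 ligand) 8.39-fold (4.74 to 16.0), Izumo1r (folate receptor 4) 7.22-fold and Icos, a costimulator, 3.56-fold. Gata3 was 6.26-fold lower (3.31 to 12.8). Areg, an epidermal growth factor family ligand of innate lymphoid and tissue T cells, stood at 1.55 and 150.3 CPM, with a UMI in 1 member. Il5, a type 2 cytokine, was at 0 and 63.5 CPM, but 4 cells gave its UMIs and 1 of them 43.3%. Areg, with 1 UMI in the members and 71 in the 129 cells, and Il5 were measured through the 129 cells. The summed type 2 innate lymphoid markers, with Rora of the score among them, stood at 55.8 CPM in the members and 865.8 CPM in the 129 cells. In the 46 cells with Cd8 and no Cd4 UMIs they stood at 207.5 CPM. The part of these markers in the result was not tested.

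Of 13 naive identity genes measured, 2 met the rule as higher and 0 as lower, with a median log2 ratio of 0.56. Dapl1 stood at 65.1 and 25.4 CPM, 2.56-fold higher (1.32 to 5.35), and Actn1, an actin crosslinker, at 52.7 and 16.9 CPM, 3.11-fold higher (1.41 to 7.78). Lef1 was 1.67-fold higher (1.35 to 2.08), Ccr7 1.73-fold (1.43 to 2.11) and Satb1, a chromatin organiser, 1.51-fold (1.27 to 1.79), all short of 2-fold; Ccr7 met the rule with totals that left out ribosomal and mitochondrial genes. Myb, a transcription factor of quiescent memory precursors, stood at 108.5 and 40.2 CPM, 2.70-fold higher (1.61 to 4.74). Col1a1, Col1a2, Col3a1, Postn and Gsn also appeared as higher, with between 63.9% and 100% of their member UMIs in 1 cell, and are not read further. Of 13 quiescence genes measured, 0 met the rule in either direction, although Pik3ip1 met it as higher under both scalings. Of 12 egress and homing genes measured, 0 met it as higher and 2, Cxcr4 and Itgb2, as lower. Both of those calls were lost under both scalings.

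Some residency and cytoskeletal genes were lower as well. Of 6 residency genes measured, 3 met the rule as lower: Cxcr6, Rgs1 (116.2 and 590.6 CPM, 5.08-fold, 3.93 to 6.65) and Rgs2 (3.22-fold, 2.64 to 3.94). Cxcr6, with 5 UMIs in the members and 68 in the 129 cells, was measured through the latter. Cd69, which marks both recent activation and residency, stood at 156.5 and 169.3 CPM (1.08-fold lower, 0.797 to 1.47). Of 12 cytoskeletal genes measured, 3 met the rule as lower and 9 did not meet it. Vim (vimentin) was 5.20-fold lower (3.96 to 6.91) and Lsp1, an actin-binding protein of leukocytes, 2.34-fold (1.60 to 3.46), while Tmsb4x (thymosin beta 4; 2.11-fold, 2.01 to 2.23) lost its call under both scalings. Of 15 immediate early genes, Fosb (3.29-fold) and Nr4a1 (3.13-fold), induced by receptor signaling, met the rule as lower, under both scalings too.

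**Figure D4:**
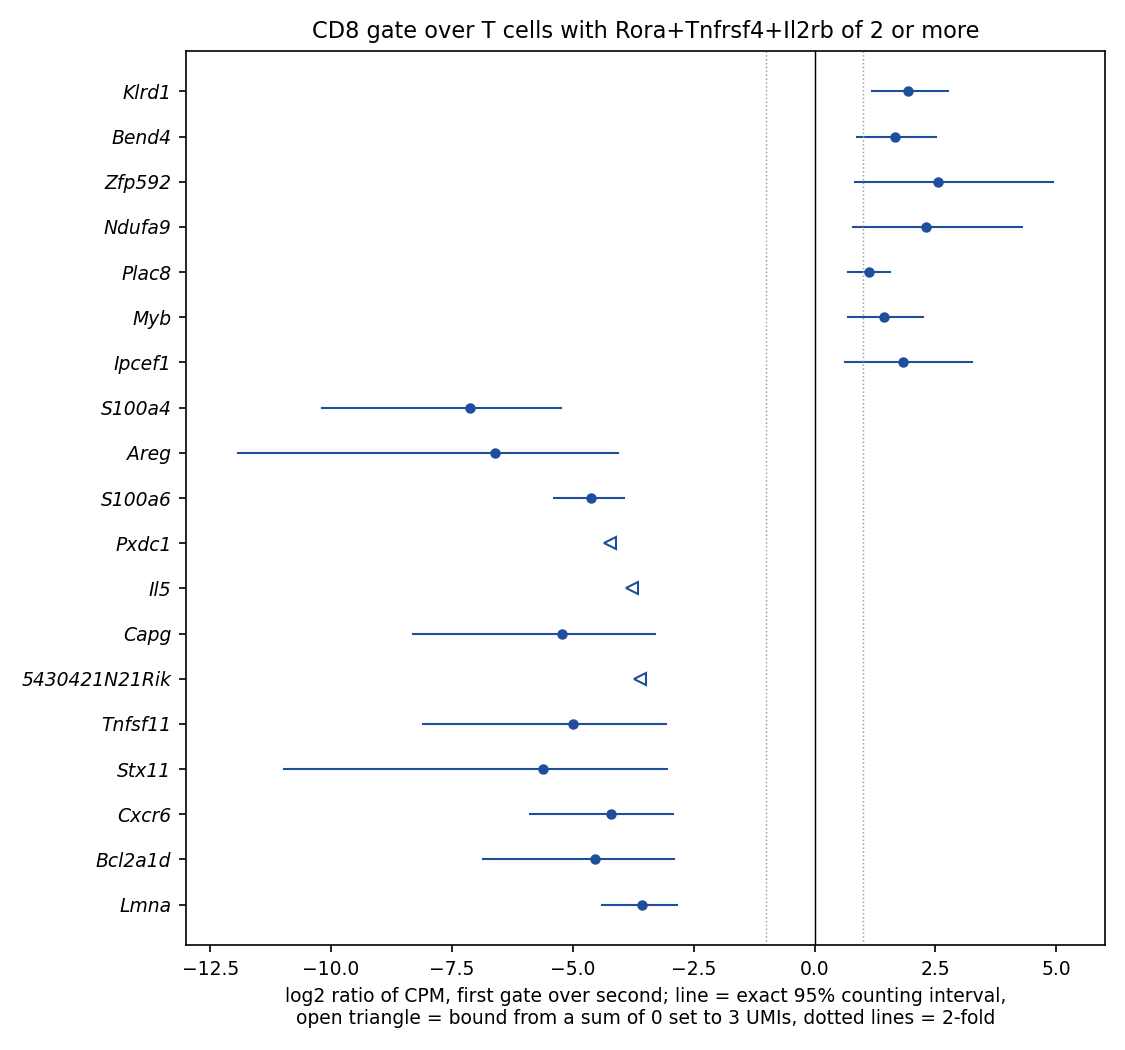
Ratio of CPM (log2) of the members over T cells with a score of 2 or more, for the 19 named genes that did not rest on the 1 member with collagen UMIs; lines are exact 95% counting intervals, open triangles bounds. S100a4 lies farthest left at 139-fold lower, and Klrd1 is 3.82-fold higher.

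The members differed among themselves in memory genes. Ccl5 was present in 37 members, Nkg7 in 53 and Cxcr3 in 6, and 70 held at least 1 of the 3, 37.6%, or 20.4% of thinned members against 1.30% of thinned B cells. Ccl5 was concentrated: 21 members with 5 or more UMIs held 379 of the 408 UMIs, and the richest held 84. Ccl5 and Nkg7 occurred together in 21 members. The remaining comparison set these 70 members against the other 116; the 3 genes of the split are not results, and the 70 were deeper, with a median of 3766.5 UMIs against 3277, so that a cell of more UMIs had more chance to enter.

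Of 2627 genes, 35 met the rule as higher in the 70 (1.33%) and 74 as lower (2.82%), or 35 and 54 under TMM scaling. Ctla2a stood at 512.6 CPM (432.6 to 603.1) and 132.4 CPM (97.6 to 175.6), 3.87-fold higher (2.78 to 5.48), and Ly6c2 at 300.5 and 102.1 CPM, 2.94-fold higher (1.98 to 4.46). Ly6c2 lost its call in the stricter gate, which left 23 and 38 cells. Mt2, a metallothionein, was 2.91-fold higher (1.91 to 4.53), Lgals1 (galectin-1) 2.71-fold (1.51 to 5.04) and Tgfb1 2.66-fold (1.33 to 5.62). Eomes, the memory T-box factor, gave 10 UMIs in the 70 and 1 in the 116, too few for the rule.

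Other cytotoxic and naive genes did not divide this way. Klrd1 stood at 137.9 and 151.7 CPM (1.10-fold lower, 0.717 to 1.70) and Ctsw at 106.1 and 77.2 CPM. Tcf7 stood at 144.9 and 143.4 CPM, Lef1 at 424.2 and 469.0 CPM, and Ccr7 at 477.2 and 612.4 CPM, none meeting the rule.

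Genes lower in the 70 included interferon-inducible GTPases: Igtp stood at 31.8 and 74.5 CPM, 2.34-fold lower (1.07 to 5.66), and Gbp4 at 10.6 and 49.7 CPM, 4.68-fold lower (1.37 to 24.8). Ifngr2, a chain of the interferon gamma receptor, was 3.28-fold lower (1.62 to 7.33), a call lost on thinning, and Hist1h2bc, a histone gene, 5.07-fold (2.13 to 14.7). Of 9 interferon response genes measured, Igtp and Gbp4 were the 2 that met the rule, with a list median log2 ratio of -0.61 against -0.06 over all genes. Gbp4 was not measured further without the top cell of each gene, because it then fell under 20 UMIs. Col1a1, Col1a2, Col3a1, Postn and Gsn were lower through the 1 member described above.

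**Figure D5:**
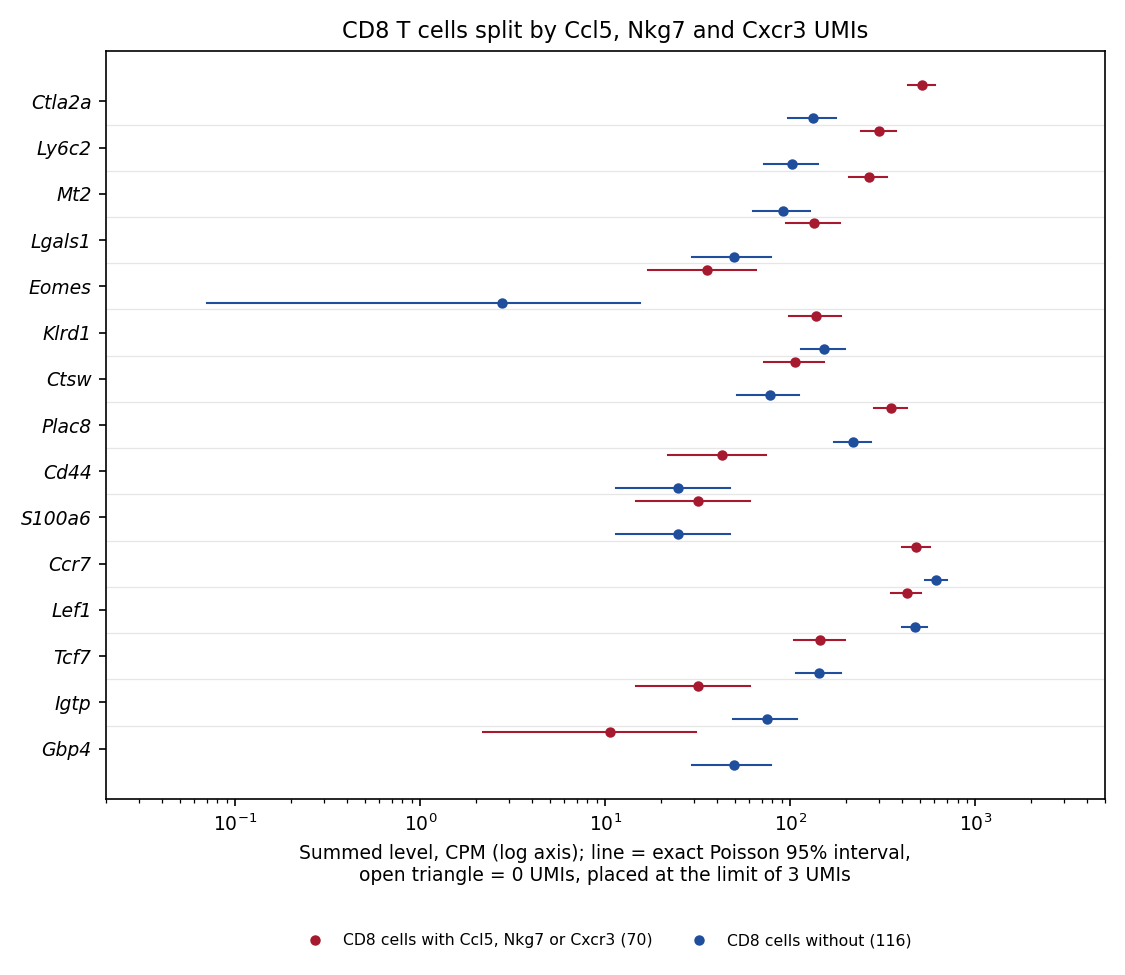
Level (CPM, log axis) of 15 genes in the 70 members with Ccl5, Nkg7 or Cxcr3 UMIs (red) and the 116 without (blue); lines are exact Poisson 95% intervals. Ctla2a (512.6 and 132.4 CPM) and Ly6c2 (300.5 and 102.1 CPM) are apart, while Tcf7 (144.9 and 143.4 CPM) is not.

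Against the 1620 other NEC cells, of which 617 were B cells and 260 Lyz2-high cells by the gates above, 319 of 9186 genes met the rule as higher in the members (3.47%) and 1469 as lower (16%). TMM scaling gave 440 and 1259, and totals without ribosomal and mitochondrial genes 857 and 956. Of 19 genes of the T-cell receptor signaling list measured, 10 met the rule as higher and 0 as lower, including the kinases Lck (173.5 and 71.8 CPM) and Zap70 (2.45-fold). The members were chosen by Cd3 and many other cells were not T cells, so these counts describe the gate. Against the Cd4-positive cells, 0 of 17 met it as higher and 3 as lower: Cd247, Zap70 (lost under TMM scaling) and Cd5. Ptpn22 met it as higher there under both scalings. Against T cells with a score of 2 or more, 0 of 18 met it as higher and 4 as lower: Cd5, Cd6, Cd28 and Thy1. Of these 4, Cd5 alone kept its call under both scalings. Against the other NEC cells, Klrd1 was 7.18-fold higher (5.33 to 9.66), Cst7 8.12-fold (4.73 to 14.0), Bend4 7.10-fold (5.06 to 9.96), Dapl1 5.52-fold and Lef1 3.56-fold (3.08 to 4.10). The lower genes were led by MHC class II genes of B and myeloid cells: Cd74, the invariant chain, stood at 48.0 and 8785 CPM, and H2-Eb1 at 34.1 and 2558 CPM. Plac8, higher in the members than in the Cd4-positive cells, was 3.91-fold lower than in the other cells together, with 1966 CPM in the 617 B cells.

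The same gate in the TEC library held 11 cells, at a median of 8834 UMIs. Gzmb stood at 738.3 CPM (605.0 to 892.1) in them against 23.2 CPM (13.0 to 38.3) in the members, Lef1 at 20.7 (4.27 to 60.5) against 449.3 CPM, and Ccr7 at 338.1 against 553.2 CPM. Macrophage and class II transcripts were present in the 11 cells, with Cd74 at 1456 CPM and Lyz2 UMIs in 8 of them, and their part in these values was not tested. With 1 library per group, tissue, depth and library cannot be told apart.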

How the data were processed

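The counts used here are 1 deposited set of raw UMI counts, labelled negs and not normalized, with 13774 genes in rows and cells in columns. The submitters' processing notes name STAR 2.5.1b and Cell Ranger 2.0.2, as well as Seurat and the mm10 build, with no settings. A cell's library was read from its name: "tumor" cells were assigned to TEC, and "control" cells to NEC on the word alone; 0 columns were left over. UMIs were summed over the cells of each gate. CPM, Poisson and Clopper-Pearson intervals and ratios were computed in Python 3.11.15 (numpy 2.4.6, scipy 1.17.1, pandas 2.3.3), and figures with matplotlib 3.10.9. TMM factors alone came from edgeR 4.0.16 (R 4.3.3). Scrublet in scanpy 1.11.5 called 7 NEC cells, and a filter (500 genes, 1000 UMIs, 10% mitochondrial UMIs) removed 5, with 0 members among them. For thinned shares each cell was drawn down to 1000 UMIs. The B cell gate took Cd79a-positive cells without Cd3, and the Lyz2-high gate cells with at least 4 Lyz2 UMIs and neither Cd3 nor Cd79a. No test was run, since each group is a single library.

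In each comparison the named genes are up to 12 with the highest lower bound and up to 12 with the lowest upper bound of the ratio among those meeting the size rule, leaving out genes of the gate, mitochondrial, ribosomal protein, hemoglobin and immunoglobulin genes, together with the examples of the gene lists. The members, the lists and the rules were chosen with earlier results of these data known. The comparison with resting T cells without a Cd8 UMI, and the values without the member holding collagen UMIs, were added after the data were seen. Prf1 and the other effector, residency and exhaustion genes given at or near 0, and single examples outside this rule, were named after their values were seen. The calculation was tested on simulated data; in the simulated comparison with the Cd4-positive cells, raised genes were recovered less often than lowered ones, and unchanged genes were called lower more often than higher. The alternatives were 2 other scalings, UMI minimums of 50 and 1, the cell filter with Scrublet, a stricter gate, thinning, and leaving out the richest cell of each gene. A planned share of cells is not reported here.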

Additional observations from a re-analysis of the deposited data

How the results depend on the processing

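No paired analysis was possible because each group had 1 library, and for the same reason no replicate could be left out. The size rule counts genes, and its counts moved with the scaling, the UMI minimum and the depth. Against the Cd4-positive cells (23 higher and 161 lower), TMM scaling gave 110 higher and 46 lower, totals without ribosomal and mitochondrial genes 45 and 95, leaving out the richest cell of each gene 54 and 63, and thinning to 1000 UMIs 8 and 49; the lower count was 69 at a minimum of 50 UMIs, 288 at 1 UMI and 93 in the stricter gate. Against T cells with a score of 2 or more (66 and 320), these scalings gave 139 and 209, and 159 and 194, thinning 23 and 121, a minimum of 50 UMIs 17 and 121, the stricter gate 36 higher, and a minimum of 1 UMI 495 lower. Against other NEC cells (319 and 1469), totals without ribosomal and mitochondrial genes gave 857 and 956, thinning 194 and 623, and the stricter gate 756 lower. Between members with and without Ccl5, Nkg7 or Cxcr3 (35 and 74), a minimum of 50 UMIs gave 10 and 13, the stricter gate 20 and 21, thinning 14 and 12, and a minimum of 1 UMI 91 higher. Against resting T cells without a Cd8 UMI (47 and 184), TMM scaling gave 78 higher, totals without ribosomal and mitochondrial genes 90 and 109, a minimum of 50 UMIs 9 and 61, a minimum of 1 UMI 83 and 287, thinning 28 and 75, and the stricter gate 106 lower. The stricter gate asked members for at least 2 Cd3 UMIs, at least 2 Cd8 UMIs and none of Lyz2, Rora, Tnfrsf4 or Il2rb. Thinning, the higher minimum and the stricter gate test fewer genes or cells. Against other NEC cells, the stricter gate left 61 members and moved the rest into the 1745 cells they were compared with. The cause of the other shifts was not tested.

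The share of NEC cells in the gate (10.3%) was 3.38% in the stricter gate, 6.70% with a score of 0, 12.8% with no limit on the score and 4.82% when cells were thinned before gating. Of 904 values of single named genes under an alternative, 858 stayed within the main interval or bound and 45 moved outside it. Only Gsn reversed, against resting T cells without a Cd8 UMI, to a ratio of 1.52 in the stricter gate. Dnajc15 and Epsti1 lost their calls against the Cd4-positive cells in the stricter gate, Plac8 against the T cells with a score of 2 or more, and Rnf138 and Cenpa within the members. Thinning ended more calls: against the Cd4-positive cells 1 of 10 measured genes named as higher (Plac8) and 5 of 6 named as lower (all but Morf4l2) still met the rule. Thinning also ended the calls of 5730508B09Rik and Dnajc15 against resting T cells without a Cd8 UMI, and of Ifngr2 and Cenpa within the members. Without the member holding collagen UMIs, Gsn lost its calls against the T cells with a score of 2 or more and within the members, and the count lower within the members was 61.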
